A study of Mus musculus with 6 samples.

Results

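Neat1 and Malat1 are long noncoding RNAs that stay in the nucleus, and Sfpq, Nono, Pspc1, Tardbp and Matr3 encode nuclear RNA-binding proteins that are found in or around paraspeckles. These 7 genes were chosen by name from the count table, with earlier results of the same comparison known, as a set of noncoding RNAs to be read against paraspeckle proteins. They are 7 of 54929 rows in the table, and all 7 were among the 14807 genes with enough reads to be tested. Because the difference between the groups was known when they were chosen, their values are given here as a description, with no p-value.

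RNA was sequenced from left ventricles of wild-type (WT) C57BL/6 mice after transverse aortic constriction (TAC), an operation that narrows the aorta and puts the left ventricle under pressure overload. One group of 3 libraries came from mice given anti-PD-1 antibody, which blocks an inhibitory receptor of activated T cells, and the other group of 3 from mice given anti-IgG antibody as the control. Both antibodies were injected into the peritoneum at 10 mg/kg every 3 days from day 14 after surgery, and the time given for every sample is 5 weeks. Both groups therefore share the operation, and no unoperated heart was analysed here. The libraries are numbered P1 to P3 (anti-PD-1) and G1 to G3 (anti-IgG). The labels name no age or sex and do not say whether each library came from a separate animal, so a p-value here covers the spread between libraries, which may be technical.

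Paraspeckles are nuclear bodies that assemble on Neat1 RNA. The long Neat1 transcript is the scaffold, and SFPQ and NONO coat and stabilise it while it is being made. The bodies hold back certain RNAs and proteins in the nucleus and grow under several kinds of stress. Malat1 is transcribed from the neighbouring gene and resides at nuclear speckles, where splicing factors are stored.

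The 3′ ends of these noncoding RNAs are made in different ways and are shown first, together with a stretch that TDP-43, the product of Tardbp, is known to prefer. Sequences are from the GENCODE M21 transcripts on the mm10 (GRCm38) build, minus strand, written 5′ to 3′ as DNA. The short Neat1 transcript (3004 nt in 2 exons) shares its start region with the long one (20771 nt in 1 exon) and ends at a polyadenylation signal, AATAAA, in capitals in its last 60 bases (chr19:5842307-5842366). That signal stood in the last 40 bases of 22.9% of annotated noncoding transcripts and 39.3% of protein-coding ones.
Short Neat1 end: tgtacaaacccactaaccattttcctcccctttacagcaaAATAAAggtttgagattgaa
The long Neat1 transcript ends instead in an A-rich tract encoded in the genome (chr19:5824708-5824797), and 15 of 30258 annotated noncoding transcripts (0.0496%) end in the same 6 letters, GCAAAA, in capitals.
Long Neat1 end: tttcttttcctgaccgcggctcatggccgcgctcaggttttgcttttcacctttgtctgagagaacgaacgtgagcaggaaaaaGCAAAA
Malat1 has an A-rich tract with the same 6 letters (chr19:5795921-5796071), 292 bases before the annotated end of the transcript. The tract closes the mature Malat1 RNA, which is cut there by RNase P and has no poly(A) tail, and the bases after the capitals give a small tRNA-like RNA.
Malat1 A-rich end: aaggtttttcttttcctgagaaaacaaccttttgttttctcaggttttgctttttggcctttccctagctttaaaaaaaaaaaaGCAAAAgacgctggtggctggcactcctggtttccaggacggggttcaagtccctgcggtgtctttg
TDP-43 binds repeats of UG in RNA. Read on the transcript strand alone, the long Neat1 transcript held 3 runs of at least 5 TG, the longest with 12 in a row (chr19:5825997-5826080, run in capitals), whereas the short one and Malat1 held 0. Among noncoding transcripts of at least 5000 nt, 42 of 260 (16.2%) held 12 TG in a row. These matches describe the letters only.
Long Neat1 TG run: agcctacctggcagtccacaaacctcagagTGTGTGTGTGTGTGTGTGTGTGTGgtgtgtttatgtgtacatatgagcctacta

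The libraries held 18063344 to 21093163 counted reads each. The share encoded by mitochondria was 28.9 to 35.7% in P1 to P3 and 29.9 to 39.3% in G1 to G3. Markers of the tissue fitted ventricle, while the left side is taken from the label alone. The 6 cardiomyocyte markers summed to 16740 to 28700 CPM (counts scaled to library size, with TMM factors) in P1 to P3 and 24970 to 31190 CPM in G1 to G3, while the atrial marker Sln was at 0 in all 6 libraries. In whole tissue, fewer cells of a type and less RNA per cell cannot be told apart.

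Neat1 (ENSMUSG00000092274, chr19:5824708-5845478, minus strand, 20771 bp) was lower in every anti-PD-1 library. It stood at 53.8, 53.7 and 52.5 CPM in anti-PD-1 libraries 1 to 3, against 280.8, 379.8 and 172.5 CPM in anti-IgG libraries 1 to 3. The groups did not overlap, the lowest anti-IgG library lying far above the highest anti-PD-1 library. The underlying reads were 1080, 1002 and 1093 in P1 to P3 and 5481, 6790 and 3445 in G1 to G3. The log2 fold change of anti-PD-1 over anti-IgG was -2.38 (SE 0.27), that is 5.20-fold lower. Among tested genes ordered by level, Neat1 was the 2772nd highest in P1 to P3 and the 343rd highest in G1 to G3, and its log2 fold change was the 52nd lowest.

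The groups also differed in the spread of Neat1. Its coefficient of variation was 1.37% over the 3 anti-PD-1 libraries and 37.3% over the 3 anti-IgG libraries. The value with anti-PD-1 lies below the 3.07% that counting error alone gives for its mean read number, and 69 of the 14807 tested genes (0.466%) had one as small in that group. Over all tested genes the median coefficient of variation was 18.5% in P1 to P3 and 19.9% in G1 to G3. With 3 libraries each, these are descriptions of spread.

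**Figure D1:**
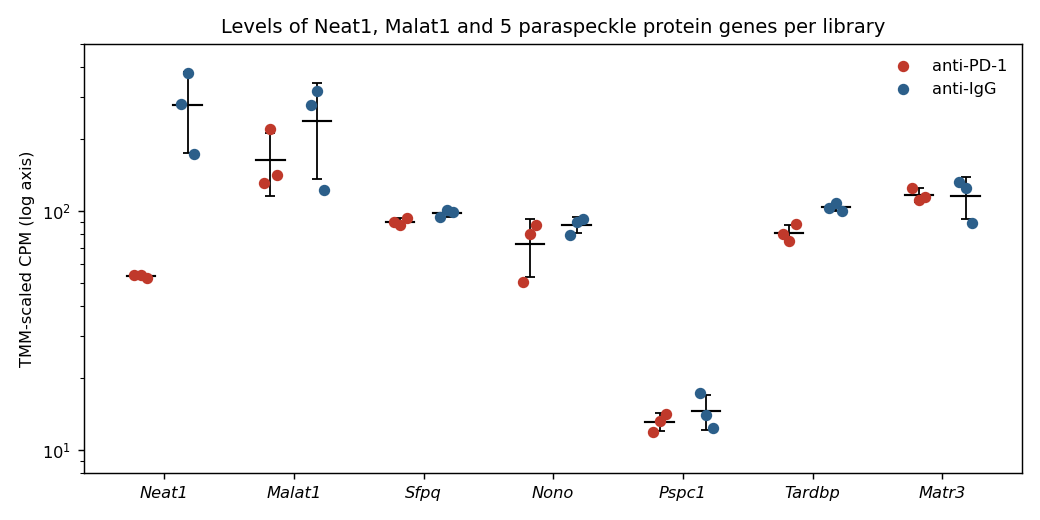
TMM-scaled CPM on a log axis of the 7 genes in each library; points are libraries, horizontal bars means and whiskers SD (n = 3 per group). The 3 anti-PD-1 points of Neat1 lie together at 52.5 to 53.8 CPM, below anti-IgG points at 172.5 to 379.8 CPM, whereas the groups of the other 6 genes overlap or lie close together.

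Malat1 (ENSMUSG00000092341, chr19:5795690-5802672, minus strand, 6983 bp) varied widely within both groups. It stood at 130.6, 219.5 and 142.0 CPM in anti-PD-1 libraries 1 to 3, against 278.6, 316.8 and 121.9 CPM in anti-IgG libraries 1 to 3. The groups overlapped, because G3 had the lowest value of all 6. The log2 fold change was -0.54 (SE 0.34), and it ranged from -0.86 without G3 to -0.31 without G2. G3 was the lowest of its group in Neat1 as well.

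No reads were assigned to other genes annotated over Neat1 and Malat1, but how reads over overlapping genes were counted is not stated. The 3 small RNA genes within Neat1, and the 3 genes over Malat1, of which 2 lie on the opposite strand, had 0 reads in all 6 libraries. So had Gm27702, a small RNA annotated directly after the 3′ end of Neat1. The table counts reads per gene, so the short and long transcripts of Neat1 cannot be told apart in it.

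SFPQ is a splicing factor that Neat1 needs to be stable, and its gene had a steady level. Sfpq (ENSMUSG00000028820, chr4:127021324-127037013) stood at 89.99, 87.1 and 93.1 CPM in anti-PD-1 libraries 1 to 3, against 94.4, 100.7 and 98.6 CPM in anti-IgG libraries 1 to 3. The groups did not overlap, but they lay next to each other, and the log2 fold change was -0.12 (SE 0.16). Its coefficient of variation was 3.32% in P1 to P3 and 3.29% in G1 to G3.

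NONO forms dimers with SFPQ. Nono (ENSMUSG00000031311, chrX:101429318-101448591) stood at 50.4, 80.2 and 87.7 CPM in anti-PD-1 libraries 1 to 3, against 79.6, 89.7 and 92.3 CPM in anti-IgG libraries 1 to 3. The groups overlapped, with P1 alone well below the rest. The log2 fold change was -0.26 (SE 0.22), and -0.05 without that library.

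PSPC1 is the third protein of that family, and its gene had the lowest level per length of the 7 in both groups. Pspc1 (ENSMUSG00000021938, chr14:56720710-56778316) stood at 11.9, 13.2 and 14.1 CPM in anti-PD-1 libraries 1 to 3, against 17.3, 14.0 and 12.4 CPM in anti-IgG libraries 1 to 3. The groups overlapped, with P2 and P3 inside the range of the anti-IgG values and P1 below it (log2 fold change -0.15, SE 0.21).

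TDP-43, encoded by Tardbp (ENSMUSG00000041459, chr4:148612382-148627019), regulates splicing and the choice between the Neat1 transcripts. Per length, Tardbp stood at 9.80, 8.91 and 10.8 FPKM, reads scaled to gene length and library size by the authors, in anti-PD-1 libraries 1 to 3, against 12.3, 12.7 and 11.97 FPKM in anti-IgG libraries 1 to 3. Its mean was 81.0 ± 6.54 CPM in P1 to P3 and 103.4 ± 3.84 CPM in G1 to G3 (SD, n = 3 each). The groups did not overlap, and every anti-PD-1 library was lower (log2 fold change -0.35, SE 0.17).

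Matrin-3, an RNA-binding protein of the nuclear matrix, is encoded by Matr3 (ENSMUSG00000037236), whose annotated length of 9869 bp is the greatest of the 5 protein genes. Matr3 stood at 125.3, 110.6 and 114.9 CPM in anti-PD-1 libraries 1 to 3, against 132.3, 124.9 and 89.2 CPM in anti-IgG libraries 1 to 3. The anti-PD-1 values lay inside the range of the anti-IgG values (log2 fold change 0.02, SE 0.19). The sign of that value changed with the processing, from -0.32 to 0.13 over 17 alternatives.

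Counted over the 7 genes, 3 had anti-PD-1 values wholly below the anti-IgG values (Neat1, Sfpq and Tardbp), 0 had them wholly above and 4 overlapped. Over all tested genes the groups did not overlap in 41.0%, with anti-PD-1 below in 20.8% and above in 20.2%. Since the genes were picked with these values known, nothing is read from the count. The summed CPM of the 5 protein genes was 357.7 to 397.7 in P1 to P3 and 392.4 to 436.8 in G1 to G3, whereas that of Neat1 and Malat1 was 184.4 to 273.2 in P1 to P3 and 294.4 to 696.6 in G1 to G3.

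Levels of different genes were compared per length, as the authors' FPKM. The libraries were made after mRNA enrichment, mature Malat1 has no poly(A) tail, and the long Neat1 transcript ends in an encoded A-rich tract. How well such RNAs were captured beside those with a poly(A) tail is not known. The order below is therefore one of reads per length, which may differ from that of RNA amounts. With anti-PD-1 the order of mean FPKM was Malat1 (22.1 ± 6.14), Sfpq (17.97 ± 0.88), Nono (15.7 ± 4.27), Matr3 (11.2 ± 0.85), Tardbp (9.83 ± 0.94), Neat1 (2.43 ± 0.035) and Pspc1 (2.15 ± 0.20; SD, n = 3). The first 4 each overlapped with the next in the order, while Neat1 lay below all values of Tardbp and above all values of Pspc1. With anti-IgG it was Malat1 (31.8 ± 13.6), Sfpq (19.2 ± 0.47), Nono (18.5 ± 1.34), Neat1 (12.4 ± 4.55), Tardbp (12.3 ± 0.37), Matr3 (10.9 ± 2.17) and Pspc1 (2.36 ± 0.42). There Neat1 overlapped with Tardbp and Matr3 and lay below Nono, and Pspc1 lay below all the others. Neat1 also overlapped with Malat1, which was at 16.3 FPKM in G3, against 16.8 FPKM for Neat1 in G2.

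The FPKM of Neat1 uses the full length of the long transcript. If all its reads came from the short one, its level per length would be 6.91 times greater, 16.6 to 17.1 in P1 to P3 and 53.6 to 116.4 in G1 to G3, which would place it near Sfpq and Nono in P1 to P3 and at the top of the order in G1 to G3. A ratio between the groups is free of this choice only if the share of the 2 transcripts was the same in both, which the table does not show.

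Within each library, Malat1 and Sfpq were also set against Neat1, and with anti-PD-1 both stood higher relative to it. The FPKM of Malat1 was 7.21, 12.2 and 8.04 times that of Neat1 in anti-PD-1 libraries 1 to 3, against 2.95, 2.48 and 2.10 times in anti-IgG libraries 1 to 3. Sfpq was at 7.32, 7.11 and 7.77 times Neat1 in anti-PD-1 libraries 1 to 3, against 1.47, 1.16 and 2.50 times in anti-IgG libraries 1 to 3. Neither ratio overlapped between the groups, and neither depends on how the libraries were scaled. Both ratios divide by Neat1, whose difference was known when it was chosen, so they are no separate evidence of that difference. Both still depend on how well the mRNA enrichment captured each RNA, which is not known.

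**Figure D2:**
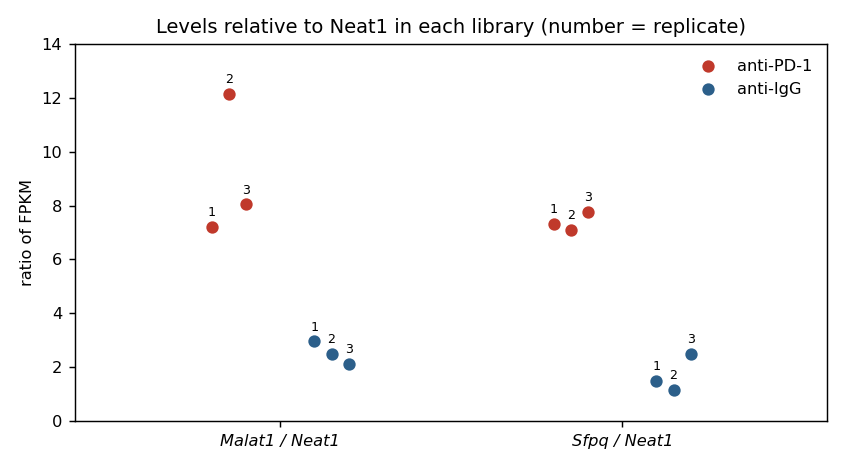
FPKM of Malat1 and of Sfpq divided by the FPKM of Neat1 in each library; points are libraries, numbered by replicate. The anti-PD-1 points lie between 7.11 and 12.2, all above the anti-IgG points, which lie between 1.16 and 2.95.

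Gene length moved with the comparison across the whole table, and Neat1, at the length of its long transcript, went against it. The tested genes were split into 10 groups of near equal size by length. In the group of the 1481 longest, of 9594 to 123179 bp by the authors' gene length, the median log2 fold change was 0.45, and Neat1 had the lowest value of all of them. In the group that holds Malat1 (5922 to 7268 bp) the median was 0.21, and in those that hold Sfpq and Nono, Pspc1, and Tardbp it was 0.05, 0.11 and 0.32. All 7 genes were therefore below the median of genes of like length. For Neat1 this length is the 20771 bp of the long transcript. The 3004 nt of the short one would put it among genes of 2799 to 3458 bp, whose median was -0.16. Which transcript gave the reads is not known, so its value with the length trend removed rests on the long one. With each library's trend on gene length removed, the log2 fold changes were -2.87 for Neat1, -0.74 for Malat1, -0.15 for Sfpq, -0.26 for Nono, -0.27 for Pspc1, -0.62 for Tardbp and -0.32 for Matr3.

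**Figure D3:**
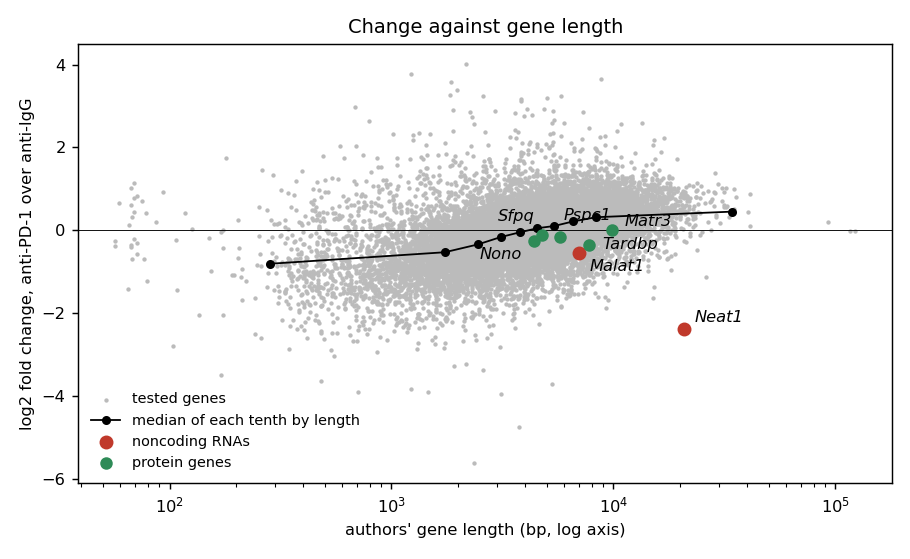
Log2 fold change of anti-PD-1 over anti-IgG against the authors' gene length (log axis) for the 14807 tested genes (grey), with the median of each of 10 length groups (black, drawn at the geometric middle of its length range). Neat1 at -2.38 lies far below the other long genes, whose median is 0.45, and the 5 protein genes lie between -0.35 and 0.02.

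Other proteins of paraspeckles, not among the chosen genes, were tested. Their list and the other gene lists below were also chosen with earlier results of these data known. Counts over the lists and the p-values of their genes are therefore a description of these data. Of 42 listed, 40 had enough reads: 10 fell, 0 rose and 30 did not pass the threshold (Benjamini-Hochberg adjusted p under 0.05 in the quasi-likelihood test of edgeR). Of all tested genes 10.8% fell, 10.3% rose and 21.1% changed in either direction. At an unadjusted p under 0.05, 13 of the 40 were lower and 3 higher, and DESeq2 and 3 limma fits gave 9 to 12 that fell and 0 that rose. The median log2 fold change of the 40 was -0.22, against -0.03 over all tested genes, at a median gene length of 5610 bp, against 4163 bp. Ewsr1, which encodes an RNA- and DNA-binding protein, averaged 40.1 ± 5.83 CPM in P1 to P3 and 83.5 ± 14.3 CPM in G1 to G3 (SD, n = 3 each; log2 fold change -1.06 ± 0.19, SE; adjusted p = 0.00783 by edgeR). Taf15 had a log2 fold change of -0.75. DAZAP1 and HNRNPH3 are needed for paraspeckles to form in cultured human cells, and the genes of both fell. Hnrnph3 averaged 9.72 ± 0.68 CPM in P1 to P3 and 20.8 ± 4.90 CPM in G1 to G3 (-1.10 ± 0.22, SE; adjusted p = 0.00945 by edgeR), and Dazap1 had a log2 fold change of -0.92. Of further proteins needed for assembly, named here after their values were seen, Hnrnpk was at -0.18 (SE 0.18), Rbm14 at -0.19 (SE 0.22) and the chromatin remodeller Smarca4 at 0.39 (SE 0.17), none past the threshold. Swi5 (-1.58), Hnrnph1 (-0.76), the cold-induced Rbm3 (-0.65), Cpsf7 (-0.67) and Rbm4b (-0.78) fell as well.

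The count of 10 fell short when single libraries were left out: it was 3 without G2, 4 without P1, 5 without P3 and 6 without G3. Ewsr1 and Hnrnph3 stayed past the threshold under all 17 alternatives, with edgeR, DESeq2 or limma adjusted p of at most 0.0448. The call of Swi5 ended without G2 or G3 (edgeR adjusted p = 0.0625 and 0.0503), and that of Dazap1 without P1 or P3 or G2 or G3 (0.0527 to 0.0778). Taf15 and Cpsf7 lost theirs without any 1 library other than G1 (0.0521 to 0.101 and 0.0515 to 0.162) and with the gene length trend removed (0.0756 and 0.0686). Hnrnph1 lost its call without P1 or P2 or G2 (0.0607 to 0.102), Rbm3 without P1 or P3 or G2 (0.0856 to 0.12), and Rbm4b without any 1 library other than G3 (0.0627 to 0.184), with RLE scaling (0.0513), by limma (0.0664 to 0.113) and without mitochondrially encoded and haemoglobin genes (0.0529).

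**Figure D4:**
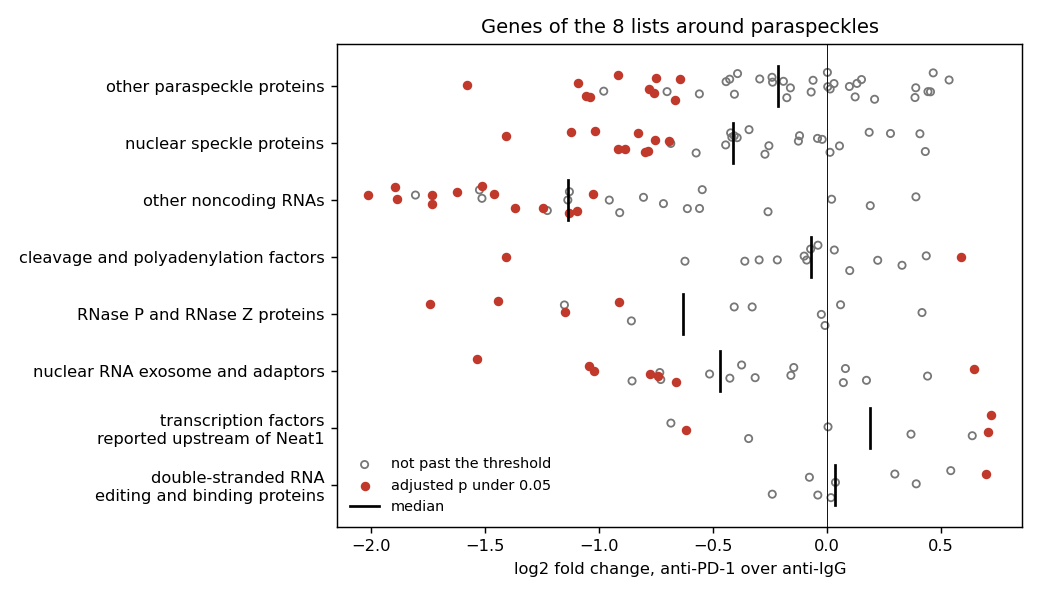
Log2 fold change of anti-PD-1 over anti-IgG for the tested genes of 8 lists; each point is 1 gene, filled where the edgeR adjusted p was under 0.05, and black bars are list medians (vertical scatter within a list has no meaning). The noncoding RNAs have the lowest median, -1.14, and in the speckle and paraspeckle lists all 20 filled points lie left of 0.

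Nuclear speckles are the bodies beside which Malat1 resides, and 33.3% of their listed genes fell, against 10.8% of all tested genes. Of all tested genes 10.3% rose. All 30 listed had enough reads: 10 fell, 0 rose and 20 did not pass in edgeR (14 lower and 1 higher at an unadjusted p under 0.05; 7 to 11 falls and 0 rises by DESeq2 and limma), with a median of -0.41 at a median length of 7288 bp. Srsf5, a serine/arginine-rich splicing factor, averaged 51.6 ± 8.22 CPM in P1 to P3 and 137.3 ± 34.8 CPM in G1 to G3 (log2 fold change -1.41 ± 0.23, SE; adjusted p = 0.00555 by edgeR). The kinases Clk1 and Clk4, which phosphorylate such factors, were at -1.12 (SE 0.27, edgeR adjusted p = 0.0180) and -1.02 (SE 0.25), and the RNA helicase gene Ddx39b was at -0.75 (SE 0.18, edgeR adjusted p = 0.0178). Srsf6 (-0.83), Luc7l3 (-0.89), Tra2a (-0.80), Arglu1 (-0.92), U2af2 (-0.78) and Acin1 (-0.69) fell as well. The count was 1 without G2, 1 without P1 and 4 without P3, and 13 with the gene length trend removed. Srsf5 was past the threshold under all 17 alternatives (highest adjusted p 0.0341). The other 9 lost their calls without P1 (edgeR adjusted p from 0.0762 to 0.174) and without G2 (0.0761 to 0.126). Without P3, Clk1, Clk4, Tra2a, Arglu1, U2af2 and Acin1 lost theirs too (0.0551 to 0.113), without P2 Srsf6, Tra2a and Arglu1 (0.0512 to 0.0629), without G3 U2af2 and Acin1 (0.0974 and 0.119), and without G1 Arglu1 (0.061). By limma on FPKM, Arglu1, U2af2 and Acin1 did not pass (0.0524 to 0.0669).

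Many noncoding RNAs other than Neat1 and Malat1 fell as well, while of all tested genes 10.8% fell and 10.3% rose. Of 41 listed, 30 had enough reads: 13 fell (43.3%), 0 rose and 17 did not pass in edgeR (17 lower and 0 higher at an unadjusted p under 0.05; 12 to 17 falls and 0 rises by DESeq2 and limma), with a median log2 fold change of -1.14. The list holds short genes, with a median length of 3252 bp, and with the gene length trend removed 10 fell, not all of them among the 13, and the median was -0.92. Most that fell are hosts of small nucleolar RNAs, which are cut from their introns. Snhg1 averaged 2.17 ± 0.54 CPM in P1 to P3 and 8.10 ± 0.74 CPM in G1 to G3 (-1.90 ± 0.29, SE; adjusted p = 0.00508 by edgeR), and Snhg6 was at -1.25 (SE 0.24, edgeR adjusted p = 0.00889). Mir17hg, host of the miR-17 to miR-92 cluster, averaged 1.11 ± 0.46 CPM in P1 to P3 and 4.54 ± 1.12 CPM in G1 to G3 (-2.01 ± 0.40, SE; adjusted p = 0.00927 by edgeR). Firre, a nuclear RNA transcribed from the X chromosome and, at 8247 bp, the longest of those that fell, averaged 11.6 ± 0.99 CPM in P1 to P3 and 33.2 ± 14.6 CPM in G1 to G3 (-1.51 ± 0.31, SE; adjusted p = 0.0115 by edgeR). Gas5 (-1.62), Zfas1 (-1.46), Mir22hg (-1.13), Snhg5 (-1.37), Snhg8 (-1.74), Snhg12 (-1.73), Snhg17 (-1.03), Snhg18 (-1.10) and Snhg20 (-1.89) fell too. Long nuclear RNAs were not all lower: Tug1 was at 0.39 (SE 0.19) and Kcnq1ot1 at 0.19 (SE 0.24), neither past the threshold. Other long RNAs of the list were lower, also with no call: Snhg14 (-1.13, SE 0.51), Meg3 (-0.96, SE 0.32) and Rian (-0.61, SE 0.32). All of these were named after their values were seen.

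The count of 13 was 1 without G2 and 5 without P1. Snhg1 passed under all 17 alternatives (highest adjusted p 0.0341), and the other 12 lost their calls without G2 (edgeR adjusted p from 0.051 to 0.155). Without P1 the calls of Firre, Snhg5, Snhg8, Snhg12, Snhg17, Snhg18, Mir22hg and Zfas1 ended too (0.0514 to 0.0737), and Snhg8 and Snhg17 also lost theirs without P3 or G3 (0.0535 to 0.0901) and Snhg17 without P2 (0.0946) and by limma on log2(FPKM + 0.1) (0.0611). With the gene length trend removed, Snhg5, Snhg6, Snhg8, Snhg18 and Mir22hg did not pass (0.0864 to 0.173).

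Of 15 cleavage and polyadenylation factors, which set the end of the short Neat1 transcript, 1 rose, 1 fell and 13 did not pass (median -0.07), with 10.3% of all tested genes rising and 10.8% falling. Pabpn1, a poly(A)-binding protein of the nucleus, fell (log2 fold change -1.41 ± 0.37, SE; adjusted p = 0.0233 by edgeR) and Papola, a poly(A) polymerase, rose (0.59 ± 0.19, SE; adjusted p = 0.0465 by edgeR), while Cpsf4 was at -0.62 (SE 0.27). The count was 0 without G2 or without P1, 1 without P3 or without G3 and 3 without G1. The call of Pabpn1 ended without G2 (0.0979) and without P1 (0.067), and that of Papola without P1, P3, G2 or G3 (0.123 to 0.186), with upper quartile scaling (0.0757), by limma on FPKM (0.0528 and 0.0534) and with the gene length trend removed (0.164). Cpsf4 passed without G1 (0.0366).

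RNase P cuts the ends of Malat1 and of the long Neat1 transcript. Of its protein subunits and RNase Z, 12 were listed and all had enough reads: 4 fell, 0 rose and 8 did not pass in edgeR (6 lower and 0 higher at an unadjusted p under 0.05; 4 to 5 falls and 0 rises by DESeq2 and limma). That is 33.3% fallen, against 10.8% of all tested genes, with a median of -0.63 at a median length of 1860 bp. Pop4 averaged 7.10 ± 0.85 CPM in P1 to P3 and 15.8 ± 3.01 CPM in G1 to G3 (-1.15 ± 0.22, SE; adjusted p = 0.00897 by edgeR), and Rpp21 (-1.74, SE 0.39), Rpp25l (-1.44, SE 0.34) and Pop5 (-0.91, SE 0.23) fell as well. With the gene length trend removed 1 of the 4 calls was left, that of Pop4, and the median was -0.32; those of Rpp21, Rpp25l and Pop5 ended (0.0551 to 0.113). The count was 1 without G2 (0.0582 to 0.0951 for those 3) and 2 without G3, where Rpp21 and Rpp25l did not pass (0.0526 and 0.0592). Pop5 did not pass without P1 either (0.0794).

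The nuclear exosome degrades RNA from its 3′ end. Of its subunits and adaptors, 20 of 21 listed had enough reads: 6 fell, 1 rose and 13 did not pass in edgeR. Their median was -0.47. At an unadjusted p under 0.05, 10 were lower and 1 higher, and DESeq2 and limma gave 6 to 8 falls and 1 rise. Over all tested genes, 10.8% fell and 10.3% rose. Exosc5 averaged 3.95 ± 1.36 CPM in P1 to P3 and 11.5 ± 3.50 CPM in G1 to G3 (-1.54 ± 0.31, SE; adjusted p = 0.0105 by edgeR), and Exosc4 (-1.02), Exosc8 (-1.04), Exosc7 (-0.78), Exosc3 (-0.74) and Srrt (-0.66) fell too. The helicase gene that brings RNA to the exosome, listed in the table as Skiv2l2, rose (0.64 ± 0.20, SE; adjusted p = 0.0407 by edgeR). The count was 0 without G2 (0.0503 to 0.178), 1 without P1, where only Exosc5 passed (the others 0.0587 to 0.119), 3 without P2 or P3 and 4 without G3. The calls of Exosc3, Srrt and Skiv2l2 ended without P2 or P3 or G3 (0.0535 to 0.142), that of Exosc7 without P2 or P3 (0.0562 and 0.0688), that of Exosc4 without G3 (0.0531) and that of Exosc3 without G1 (0.068). With the gene length trend removed, Exosc3 (0.797), Exosc4 (0.107) and Skiv2l2 (0.126) did not pass. Skiv2l2 did not pass with upper quartile scaling (0.0593), nor Exosc3 without the count filter (0.055).

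Transcription factors reported to raise Neat1 transcription in other cells did not move one way. Of 8 listed and tested, 2 rose, 1 fell and 5 did not pass in edgeR (median 0.19). At an unadjusted p under 0.05, 3 were higher and 2 lower, and DESeq2 and limma gave 2 to 3 rises and 0 to 1 falls. Over all tested genes, 10.3% rose and 10.8% fell. Whether counts among so few genes differ from these shares was not tested. Stat3 averaged 180.4 ± 15.8 CPM in P1 to P3 and 110.4 ± 9.87 CPM in G1 to G3 (0.71 ± 0.18, SE; adjusted p = 0.0203 by edgeR) and Atf2 was at 0.72 (SE 0.20, edgeR adjusted p = 0.0298), while Hsf1, the heat shock regulator, was at -0.62 (SE 0.20, edgeR adjusted p = 0.0452). The hypoxia factors Hif1a and Epas1 were at 0.64 (SE 0.23) and 0.37 (SE 0.23) and Trp53 at -0.69 (SE 0.30), with no call. The 3 calls all ended without P1 (0.0757 to 0.162) and without G2 (0.106 to 0.143), and the count was 1 without P3, 1 without G3 and 2 without P2. Stat3 also lost its call without P3 (0.0579), Atf2 without P2 or G3 (0.0509 and 0.0923), and Hsf1 without P2 or P3 or G3 (0.0802 to 0.129) and by limma (0.0513 to 0.0731). With the gene length trend removed Stat3 (0.205) and Atf2 (0.123) did not pass.

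Paraspeckles retain RNAs with double-stranded, edited stretches. Of 9 genes for proteins that edit or bind such RNA, 1 rose, 0 fell and 8 did not pass in edgeR (median 0.04). The share that rose, 11.1%, was near the 10.3% of all tested genes. At an unadjusted p under 0.05, 2 were higher and 0 lower, and DESeq2 and limma gave 1 to 2 rises and 0 falls. Stau2, a double-stranded RNA-binding transport protein, averaged 81.2 ± 8.45 CPM in P1 to P3 and 50.1 ± 6.03 CPM in G1 to G3 (0.70 ± 0.18, SE; adjusted p = 0.0206 by edgeR). Dhx9 was at 0.54 (SE 0.19) and passed by DESeq2 (0.0406) and without G1 (0.0162). The editing enzyme genes Adarb1 and Adar were at 0.39 (SE 0.19) and 0.04 (SE 0.17). The count was 0 without P1, without G2 or without G3 and 2 without G1. The call of Stau2 ended without P1 or G2 or G3 (0.0574 to 0.104) and with the gene length trend removed (0.0782).

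The tested genes around Neat1 on chromosome 19 had log2 fold changes of -2.13 to 0.40. Within 200 kb on either side, 15 genes other than Malat1 had enough reads: 4 fell, 0 rose and the others did not pass in edgeR, with a median of -0.34, while of all tested genes 10.8% fell and 10.3% rose. At an unadjusted p under 0.05, 4 were lower and 0 higher, and DESeq2 and limma gave 3 to 4 falls and 0 rises. The nearest tested gene upstream, Frmd8, has its near (3′) edge 4.22 kb from the Neat1 start site on the same strand and averaged 15.9 ± 2.84 CPM in P1 to P3 and 18.9 ± 2.27 CPM in G1 to G3 (-0.25, SE 0.20). The genes that fell were Gm42067 (-2.13 ± 0.41, SE; adjusted p = 0.00883 by edgeR), Sssca1 (-1.55, SE 0.38), Slc25a45 (-1.05, SE 0.33) and Pola2 (-0.74, SE 0.23; edgeR adjusted p = 0.0198, 0.0426 and 0.0425 for these 3). Gm42067 overlaps Dpf2 on the opposite strand, and whether counting used strand is not stated. Sssca1 overlaps Fam89b on the same strand, and how reads in such overlaps were counted is not stated either. The reads of Gm42067 and Sssca1 are therefore uncertain. The 4 calls ended without G2 (0.0512 to 0.216), those of Sssca1, Slc25a45 and Pola2 also without P1 or P3 or G3 (0.0535 to 0.13), and those of Slc25a45 and Pola2 without P2 (0.0769 and 0.111). With the gene length trend removed Gm42067 (0.0522), Slc25a45 (0.13) and Pola2 (0.134) did not pass, nor did Slc25a45 by limma (0.0565 to 0.0613).

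**Figure D5:**
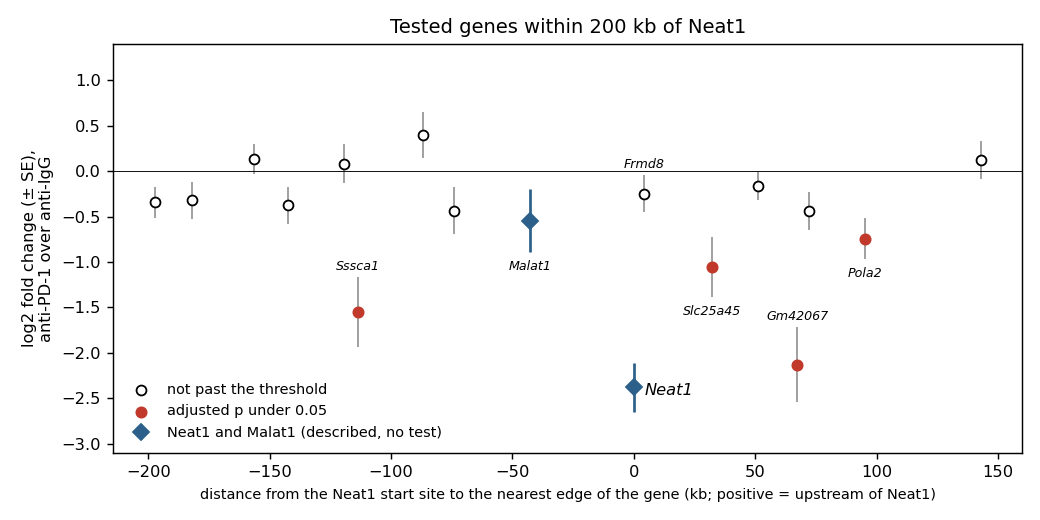
Log2 fold change (± SE) of anti-PD-1 over anti-IgG for tested genes within 200 kb of Neat1, against the distance in kb from the Neat1 start site to the nearest edge of each gene. Neat1 at -2.38 and Malat1 at -0.54 are diamonds; Frmd8, the nearest upstream, is at -0.25, and the 4 filled points, also named, are genes past the threshold.

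Beside Sfpq, the noncoding gene Gm12940, which overlaps its 3′ part on the same strand (chr4:127033731-127049398) and was named after its values were seen, had 93, 128 and 121 reads in anti-PD-1 libraries 1 to 3, against 281, 345 and 197 reads in anti-IgG libraries 1 to 3. The groups did not overlap and the gene fell (log2 fold change -1.33 ± 0.28, SE; adjusted p = 0.0113 by edgeR; 0.0611 without G2). Whether reads in the shared stretch were counted for either gene or for neither is not stated.

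Among the 5 genes whose pattern over the 6 libraries was most like that of Neat1, by Pearson correlation of log2 CPM among 11518 named genes whose log2 CPM averaged at least 1 (predicted and clone-named genes left out), were Rpl37rt (0.996), Hpf1 (0.993), Tcea2 (0.991) and Pgf (0.990). These values are a description over 6 libraries that fall into 2 groups, and 563 genes reached 0.9. The differences of these 4 were smaller than that of Neat1. Hpf1, a cofactor of PARP enzymes, averaged 11.2 ± 0.90 CPM in P1 to P3 and 23.6 ± 3.87 CPM in G1 to G3 (log2 fold change -1.08, SE 0.20). Rpl37rt, a retrotransposed copy of a ribosomal protein gene, was at -1.20 (SE 0.21) and can share reads with its parent. Tcea2, a transcription elongation factor, was at -0.80 (SE 0.29), and Pgf, placental growth factor, at -0.90 (SE 0.29). No test is given for these genes, since they were picked for following Neat1.

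Malat1 was most like Dhtkd1 (0.998), Iqcb1 (0.992), Sec31b (0.985), mt-Nd3 (0.985) and Vwa3a (0.985), and 89 genes reached 0.9. mt-Nd3, a complex I subunit encoded by mitochondria, stood at 207.5, 322.4 and 176.6 CPM in anti-PD-1 libraries 1 to 3, against 454.3, 534.8 and 167.9 CPM in anti-IgG libraries 1 to 3. As in Malat1, G3 was the lowest of all 6. These 5 genes had log2 fold changes of -0.25 to -0.71, likewise with no test.

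Cell type markers were summed to show what moved beside Neat1. The 5 endothelial markers summed to 1193 to 1465 CPM in P1 to P3 and 1274 to 1467 CPM in G1 to G3, and the 5 fibroblast markers to 1470 to 2508 CPM in P1 to P3 and 1240 to 1962 CPM in G1 to G3. In edgeR 0 of either list passed, with 0 endothelial and 1 fibroblast marker at an unadjusted p under 0.05 and 0 by DESeq2 and limma. The 5 macrophage markers summed to 129.9 to 140.3 CPM in P1 to P3 and 100.1 to 204.0 CPM in G1 to G3. Among them Adgre1 rose (0.97), a call that ended without P1, P3 or G2 (0.0543 to 0.0871), and C1qa fell (-1.56), a call that ended without any 1 library other than G1 (0.0891 to 0.128), by limma (0.0616 to 0.0738) and with the gene length trend removed (0.214). The 5 T cell markers were near the floor, summing to 2.50 to 3.04 CPM in P1 to P3 and 2.97 to 4.25 CPM in G1 to G3. Only 2 of these 5 had enough reads to be tested, and they went opposite ways. Cd8a was at 0.85 (SE 0.48), with no call. Trac fell (-1.32), a call that ended without any 1 of the 6 libraries (0.0533 to 0.152), without the count filter (0.0611), without mitochondrially encoded and haemoglobin genes (0.0508) and with the gene length trend removed (0.352). The 4 B cell markers did not overlap, summing to 0.750 to 1.63 CPM in P1 to P3 and 3.30 to 6.61 CPM in G1 to G3. Cd79b (-2.12) and Cd79a fell, with calls that ended without P1 or G3 (0.051 to 0.0837), and for Cd79b without P2 (0.0603) and with the gene length trend removed (0.095). The 5 pericyte and smooth muscle markers summed to 1932 to 2290 CPM in P1 to P3 and 1760 to 2090 CPM in G1 to G3, where Kcnj8 fell (-0.64), a call that ended without P1, P2, G2 or G3 (0.0586 to 0.108) and with the gene length trend removed (0.172). Of the 6 cardiomyocyte markers, Ryr2 rose (1.39) under all 17 alternatives, Myl2 fell (-1.87), a call that ended without G2 (0.06), and Tnnt2 fell (-1.22), a call that ended without P1, P3, G2 or G3 (0.0609 to 0.0761). Red blood cell genes summed to 90.9 to 729.8 CPM in P1 to P3 and 267.3 to 618.9 CPM in G1 to G3, and 6 immediate early and heat shock genes to 113.6 to 248.4 CPM in P1 to P3 and 76.2 to 140.2 CPM in G1 to G3. In edgeR 0 of these passed, with 0 red blood cell genes and 1 of the 6 others at an unadjusted p under 0.05 and 0 by DESeq2 and limma. Of the markers with no call, Acta2 (-0.74) passed without the count filter, by DESeq2 and without G1 (0.00997 to 0.046), Cd68 (-0.77) without the count filter and without G1 (0.0301 and 0.0122), Ms4a1 (-1.53) with upper quartile scaling and with the stricter count filter (0.0476 and 0.045), Col1a1 (0.76) and Hspa1b (0.95) without the count filter (0.0124 and 0.0273), and Egr1 (1.14) without P2 (0.0223). The part of these cell types in the difference of Neat1 was not tested.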

How the data were processed

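RNA of 6 left ventricle libraries was sequenced after mRNA enrichment and library preparation with a NEBNext Ultra kit, per the labels' protocols. The deposited tables hold raw counts for each gene, and FPKM beside a gene length in bp; featureCounts and mm10 are named in the submitters' processing notes, while for the aligner and strand setting the sources used here give nothing. The test on raw counts used edgeR 4.0.16 under R 4.3.3 (filterByExpr, TMM scaling, quasi-likelihood F test with robust fitting, 2-sided), adjusting p-values by Benjamini-Hochberg over 14807 genes, with 0.05 as the threshold; the SE is the log2 fold change divided by the square root of F. The steps were tested on simulated counts with known changes. The members and the 8 lists were chosen with earlier results of these data known. Named list genes are the 3 with the smallest p in each list; others that passed are named beside the count, after their values were seen. For Neat1 and Malat1, the 5 genes of highest correlation were found (log2 CPM with a prior count of 2). The neighbour window of 200 kb and the sequences shown were also chosen in this way. Gene names come from the count table, transcripts from GENCODE M21 (GRCm38). Alternatives were RLE and upper quartile scaling, 2 other count filters, DESeq2 1.42.0, limma 3.58.1 (voom, and trend on log2(FPKM + 1) and log2(FPKM + 0.1)), a replicate block, leaving out mitochondrially encoded and haemoglobin genes, each library's trend on gene length removed (natural spline, 5 degrees of freedom), and each library left out in turn. Counting error was taken from read numbers, and PCR copies are not independent molecules. Some genes these rules select are not reported here.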

Additional observations from a re-analysis of the deposited data

How the results depend on the processing

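Neat1 was lower and Malat1 lower with anti-PD-1 under all 17 alternatives. Neat1 ranged from -2.87 with the gene length trend removed to -1.91 on log2(FPKM + 1), which shrinks changes of low values. Without 1 library Neat1 ranged from -2.62 to -2.10 and Malat1 from -0.86 to -0.31. Sfpq, Nono, Pspc1 and Tardbp were below 0 under all 17, and Matr3 was below 0 under 4 and above 0 under 13. Upper quartile scaling put the median of all tested genes at -0.12, against -0.03, and 36.8% of changed genes rose with it, against 48.9%. The total of 3118 changed genes was 1526 with the gene length trend removed and ranged from 532 to 3646 without 1 library. Counts of list genes changed without 1 library ranged from 3 to 11 (paraspeckle), 1 to 10 (speckle), 1 to 15 (noncoding), 0 to 3 (polyadenylation), 1 to 5 (RNase P and Z), 0 to 8 (exosome), 0 to 4 (transcription factors) and 0 to 2 (double-stranded RNA). With the gene length trend removed RNase P and Z had 1 change (4 otherwise), polyadenylation factors 1 (2), transcription factors 1 (3) and double-stranded RNA proteins 0 (1; by DESeq2 2). Polyadenylation factors had 1 change with upper quartile scaling and 1 on each FPKM scale, and transcription factors 5 without the count filter. The cause was not tested. Whether the replicate numbers pair the samples could not be settled with so few libraries. Deviations of same-numbered libraries correlated at 0.124, -0.143 and 0.214. P1, P3 and G3 correlated best with their own number, whereas P2, G1 and G2 did not. With the replicate block 3367 genes changed and Neat1 was at -2.31. Under it the calls of the markers C1qa (0.0612) and Trac (0.05) ended and Acta2 passed (0.0203). Counting error was 6.21% for Pspc1 with anti-PD-1, against a coefficient of variation of 8.69% between libraries, and 3.07% for Neat1, against 1.37%.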
